A study of Homo sapiens with 8 samples.

Results

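RBBP4 is a WD40 histone chaperone that is shared by several chromatin complexes, and the 40 genes described here encode RBBP4 itself and subunits of those complexes. The genes were chosen by name from the known composition of NuRD, PRC2, SIN3, CAF-1, MuvB, NURF and the HAT1 acetyltransferase. The rule uses no measured value, but the list was drawn up with earlier results of these data known. A deposited region was assigned to a gene when it overlapped the RefSeq span of that gene in GRCh38 extended by 3000 bp on both sides. All 40 names matched 1 of 20033 protein-coding genes. By this rule they held 68 of the 35154 regions of the RBBP4 table and 15 of the 20496 regions of the P300 table.

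The study immunoprecipitated chromatin of the human cell line NCI-H69, grown from a small cell lung cancer, with an antibody to RBBP4 or to the histone acetyltransferase P300. Cells had received siRNA against CSNK2B, the regulatory subunit of the kinase CK2, or a non-targeting control siRNA, and were crosslinked 48 h after transfection. Each antibody had 1 immunoprecipitated library per siRNA, so no replicate spread exists, and the labels give each antibody a batch of its own. All groups share the line, the transfection reagent and the time point, and how many different siRNAs were used is not given in the sources used here. Input libraries were not used here.

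NuRD couples histone deacetylases to the CHD remodelling ATPases and removes acetyl groups while it moves nucleosomes. PRC2 methylates lysine 27 of histone H3 through EZH2 or EZH1, and SIN3 is a scaffold that brings histone deacetylases to promoters. CAF-1 deposits new histones behind the replication fork, HAT1 acetylates new H4 before deposition, MuvB is the core of the DREAM repressor of cell cycle genes, and NURF slides nucleosomes. RBBP4 or its paralogue RBBP7 sits in each as a histone-binding subunit.

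Values are read densities in RPKM, reads scaled to region length and library total, and the whole reads recovered from them. Higher and lower mean higher or lower after CSNK2B siRNA than after control siRNA. A fold compares reads scaled to each library's total, and the range in brackets is its 95% exact binomial interval, which covers counting error only and not the spread between cultures. A region is termed called when the authors' deposited table gives it an adjusted p under 0.05, a p that also rests on 1 library per siRNA. A region lies near an end when it is within 3000 bp of either end of the gene span.

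The RBBP4 table listed 24180 higher and 10974 lower regions, and P300 had 7121 higher and 13375 lower. Both tables hold only regions with an unadjusted p below 0.05, so peaks without a listed difference were not analysed here, and a gene without a listed region may still carry an unlisted peak. Read totals implied by the RPKM values were 1207945 (CSNK2B siRNA) and 833181 (control) for RBBP4, and 946392 and 1092789 for P300. Regions were shallow: the medians per region were 14 knockdown and 6 control reads for RBBP4, and 3 and 8 for P300. Columns were tied to the siRNA by their names alone, and a swap would turn every direction. CSNK2B itself had no listed region, and its knockdown was not measured in these files. Of 7 neuroendocrine marker genes 1 (NCAM1) had a listed RBBP4 region, against 3 of 5 fibroblast, 0 of 4 T cell and 1 of 3 hepatocyte markers. Among all protein-coding genes 51.6% had one. For P300 the counts were 1 of 7, 2 of 5, 1 of 4 and 0 of 3, against 23.6% of all genes. These counts cover listed differences only, and marker expression was not measured here. The libraries also differed over 1 long segment of an autosome that holds none of the 40 genes. There the RBBP4 control library had a median of 72.9 reads per kb of listed region against 10.5 elsewhere, and the P300 control library 34.3 against 32.4, although the labels give NCI-H69 for both.

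Promoter windows ran from 250 bases before to 50 bases after the outermost start in the RefSeq promoter table, which for 8 of 37 members lies inside the gene span. Upstream sequences are shown for the 6 members with the most reads in a called RBBP4 region over that window (HDAC1 tied with SAP30 at 18 reads and was taken by name). This order follows depth and not the size of the difference, and called regions outside the window did not count. Each run is the 250 bases upstream of that start (GRCh38.p14), which for all 6 is also the 5′ limit of the span, written 5′ to 3′ on the strand of the gene. Capitals mark CCAAT (or ATTGG on the other strand), the letters bound by NF-Y, and GGGCGG (or CCGCCC), the GC box bound by SP1 and related factors. The windows are MTF2 chr1:93079033-93079282 on the plus strand, EZH2 chr7:148884292-148884541 on the minus strand, GATAD2B chr1:153922973-153923222 on the minus strand, JARID2 chr6:15245819-15246068 on the plus strand, RBBP4 chr1:32650958-32651207 on the plus strand and HDAC1 chr1:32291833-32292082 on the plus strand.
MTF2: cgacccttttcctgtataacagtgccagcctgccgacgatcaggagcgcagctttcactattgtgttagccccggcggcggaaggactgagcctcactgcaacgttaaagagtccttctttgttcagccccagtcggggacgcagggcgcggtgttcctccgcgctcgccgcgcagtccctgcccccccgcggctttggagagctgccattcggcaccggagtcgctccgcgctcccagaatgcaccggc
EZH2: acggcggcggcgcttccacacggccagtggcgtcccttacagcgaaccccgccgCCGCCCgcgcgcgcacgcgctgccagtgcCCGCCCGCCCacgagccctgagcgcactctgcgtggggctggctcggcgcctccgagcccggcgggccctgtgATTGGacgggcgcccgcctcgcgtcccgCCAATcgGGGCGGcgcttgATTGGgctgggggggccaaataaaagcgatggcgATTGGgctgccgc
GATAD2B: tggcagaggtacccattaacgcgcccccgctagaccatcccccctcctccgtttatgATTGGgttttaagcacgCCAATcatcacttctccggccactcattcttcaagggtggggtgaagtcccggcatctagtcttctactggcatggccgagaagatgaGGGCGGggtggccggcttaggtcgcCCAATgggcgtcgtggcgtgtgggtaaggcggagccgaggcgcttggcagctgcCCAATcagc
JARID2: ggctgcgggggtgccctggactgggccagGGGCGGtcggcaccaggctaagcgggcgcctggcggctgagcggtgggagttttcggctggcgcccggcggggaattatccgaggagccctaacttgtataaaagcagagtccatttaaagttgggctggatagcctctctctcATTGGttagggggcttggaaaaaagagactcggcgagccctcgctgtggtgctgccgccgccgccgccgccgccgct
RBBP4: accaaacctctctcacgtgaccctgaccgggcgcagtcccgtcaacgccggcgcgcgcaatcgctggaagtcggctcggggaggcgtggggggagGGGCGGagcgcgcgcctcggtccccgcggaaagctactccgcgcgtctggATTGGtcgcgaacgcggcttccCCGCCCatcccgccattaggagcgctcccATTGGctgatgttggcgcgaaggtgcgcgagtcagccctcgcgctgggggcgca
HDAC1: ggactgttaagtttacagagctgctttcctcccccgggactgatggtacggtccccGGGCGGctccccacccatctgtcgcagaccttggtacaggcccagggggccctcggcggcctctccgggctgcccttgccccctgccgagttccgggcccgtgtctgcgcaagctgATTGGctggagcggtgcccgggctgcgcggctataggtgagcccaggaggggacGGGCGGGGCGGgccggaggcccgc
The EZH2 and GATAD2B stretches each held 4 CCAAT matches and the MTF2 stretch held none of either motif. A called higher region overlapped part or all of each of the 6 stretches. At EZH2 and GATAD2B it began at 148884398 and 153923173, so it covered only the part farther from the start, without these CCAAT matches.

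The members' promoters differed from one another in the letters that E2F factors bind. The search took TTTCCCGC, TTTCGCGC, TTTGCCGC and TTTGGCGC on both strands of the same windows and let matches of different motifs overlap. A match was present in 7 of 37 members with a RefSeq promoter entry (18.9%) and in 4.44% of 15842 protein-coding genes with one. Of these 7 genes 6 encode PRC2 subunits, out of 9 PRC2 members, and the last is LIN52 of MuvB. This grouping was seen after the search. The windows of AEBP2 and PHF19 start 36527 and 26940 bp inside the span, so their matches are at inner starts. Each match is shown with its flanks as a run of 30 bases, the match in capitals, to let the PRC2 promoters be compared with one another. They lie at EZH2 chr7:148884272-148884301 (minus), EZH1 chr17:42745137-42745166 (minus), SUZ12 chr17:31936807-31936836 (plus), MTF2 chr1:93079277-93079306 (plus), AEBP2 chr12:19440438-19440467 (plus), PHF19 chr9:120877322-120877351 (minus), LIN52 chr14:74084920-74084949 (plus).
EZH2: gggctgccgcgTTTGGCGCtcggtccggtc
EZH1: gcggggttttgGCGGCAAAtgacagtagtg
SUZ12: cgacccctaatTTTCCCGCgaattcagttc
MTF2: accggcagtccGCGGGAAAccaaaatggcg
AEBP2: caaggcgacgtTTTGCCGCgatccccctgc
PHF19: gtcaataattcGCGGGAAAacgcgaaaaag
LIN52: tggaacctcgtTTTCCCGCcgacggttggc
Genes with these letters had RBBP4 values of every kind. EZH2 and MTF2 had a called higher region at the promoter, EZH1 and SUZ12 a listed region that was not called, AEBP2 and PHF19 no listed RBBP4 region, and LIN52 lower regions only. The regions over the starts of MTF2 and EZH1 covered the E2F letters, and those at EZH2 and SUZ12 did not. Other motifs gave the following shares. CCAAT was found in 18 of 37 members (48.6%) and 36.4% of all windows, GGGCGG in 30 (81.1%) and 58.3%, and the ETS letters CCGGAAG in 7 (18.9%) and 14.2%. The CHR letters TTTGAA or TTCGAA, to which LIN54 binds in cell cycle promoters, were found in 3 (8.11%: MBD2, SUZ12 and LIN54) and 13.6%. Members' windows were also rich in GC, with a median GC content of 67.7% against 62.7% and a median of 30 CpG dinucleotides against 22, which bears on how often such letters occur. A match describes letters only, not binding.

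Every listed RBBP4 region near an end of these genes was higher after CSNK2B siRNA, as were 24180 of all 35154 listed regions. Some of those counted here lie in neighbouring genes. With only regions nearest to the member's own end, 19 of 40 (47.5%) had a called higher one, against 26.3% of all genes. A called higher region near an end was present at 24 of 40 members (60%), where 29.7% of all protein-coding genes had one. Counting every listed higher region near an end gave 29 members (72.5%), against 36.3%. Lower regions near an end were listed at 0 of 40, and for 2.82% of all genes (called ones for 0.909%). By the widest rule, any listed RBBP4 region, 33 of 40 (82.5%) stood against 51.6% of all genes, and 31 (77.5%) had a higher one, against 46.5%. A called higher region anywhere in the gene or its flanks was found at 25 (62.5%), against 38.3%. Over the promoter windows described above the shares were close. A called higher region overlapped the window of 9 of 37 members (24.3%), against 22% of the 15842 protein-coding genes with an entry. Members are longer than most genes, with a median span of 49690 bp against 24130 bp, and a longer span can hold more regions. Whether members also have more unlisted peaks was not tested.

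**Figure D1:**
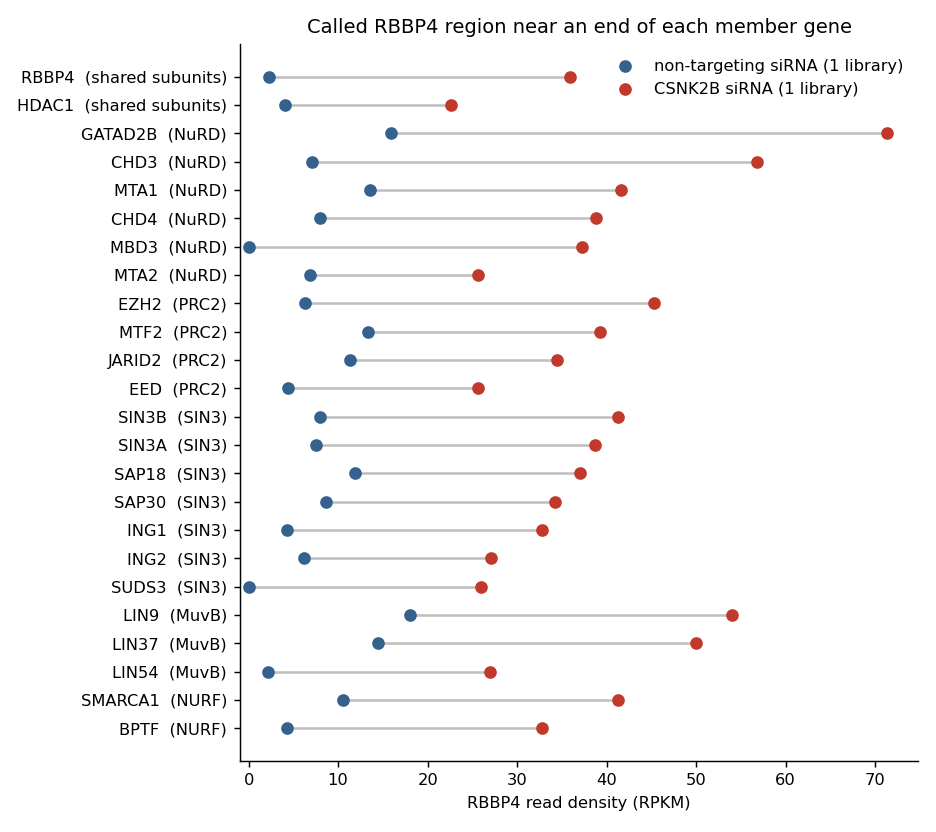
RBBP4 read density (RPKM, linear axis) in 1 called higher region of each of the 24 members that have one near a gene end, 1 line per gene with the control library in blue and the CSNK2B siRNA library in red, 1 library each. Where a member had several, the region with the largest knockdown RPKM times width is drawn. For MTA2 and SIN3A that region lies beyond the 3′ end, and for JARID2 it covers an inner start. Knockdown values run from 22.6 to 71.3 RPKM and control values from 0 to 18.1 RPKM, with the red point to the right on every line because only such regions were chosen.

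Region by region, members lay near the background. Of the 68 RBBP4 regions at members, 48 (70.6%) exceeded the control by 2-fold or more on log2((RPKM + 1)/(RPKM + 1)), as did 64.9% of all listed regions, and 15 (22.1%) lay 2-fold or more below it, as did 31.2%. The median log2 ratio was 1.69 over the 68 and 1.49 over all listed regions. Within each direction members were close to the rest, at 1.79 against 1.86 for higher regions and -3.00 against -2.76 for lower ones. Called regions numbered 38 higher (55.9%, in 25 members) and 5 lower (7.35%), against 48.3% and 8.94% of all listed regions. Called higher regions had medians of 20 knockdown reads and 3 control reads.

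Position separated the directions. Among members with a RefSeq start, 33 of 48 higher regions (68.8%) lay within 3000 bp of the member's start, against 48.5% of all higher regions in or beside a protein-coding gene. For lower regions the counts were 1 of 15 (6.67%) and 5.80%. Near either end lay 42 of 53 higher regions (79.2%), against 47.0%, and 0 of 15 lower regions, against 11.5%. The lower regions therefore lay inside the genes, away from both ends. Depth differed as well, at a median of 13 summed reads in lower and 22 in higher regions. Over all listed RBBP4 regions these medians were close, at 13 and 24.

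**Figure D2:**
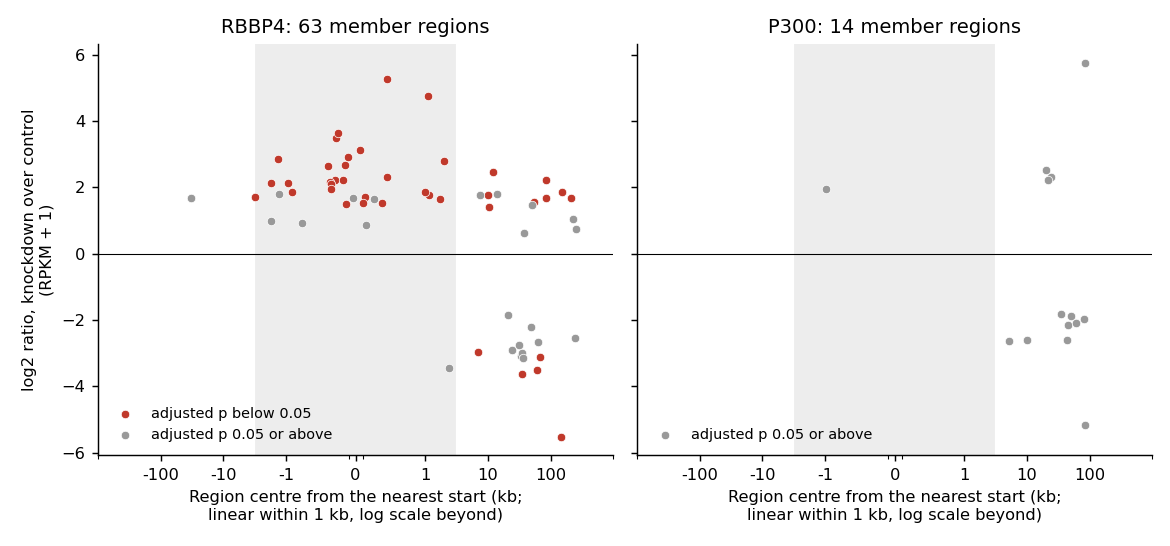
Log2 ratio of RPKM + 1 (CSNK2B siRNA over control) of each member region against the distance of its centre from the nearest start of the member, in kb, linear within 1 kb and on a log scale beyond, with the 3 kb on both sides shaded, for RBBP4 (left) and P300 (right). Red points are called regions by the authors' deposited table, and all but 1 of the lower RBBP4 points lie outside the shaded band.

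Not every called region belongs to the member alone. Of the 38 called higher regions, 24 lay inside the member's span, 7 overlapped another protein-coding gene, and for 30 the nearest gene end was the member's own. With only such regions, a choice made after seeing the data, 19 members (47.5%) kept a called higher region near an end, against 26.3% of all genes. At the edge of the 3000 bp rule, the region counted for LIN37 lay 2937 bp away (20 reads against 4), and the nearest ones left out lay 3080 bp from LIN37, 4052 bp from MTA1 (28 against 9), 4774 bp from CHAF1A (10 against 2) and 5294 bp from CHD4 (84 against 6).

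The shared subunits split evenly. RBBP4 and HDAC1, a class I deacetylase of NuRD and SIN3, had a called higher region at the promoter, and their paralogues RBBP7 and HDAC2 had no listed region in either table. The region at RBBP4 (chr1:32650661-32651190) ended 18 bp upstream of the start and overlapped the neighbouring gene ZBTB8OS. Knockdown gave 23 reads (35.9 RPKM) there and the control 1 read (2.27 RPKM), 15.9-fold higher (2.58 to 654). Here the immunoprecipitated protein was measured at the promoter of its own gene, the sequence given above. The region at HDAC1 (chr1:32291490-32292076), 7 bp upstream, had 16 reads (22.6 RPKM) against 2 (4.09 RPKM), 5.52-fold higher (1.30 to 49.5). The nearest listed RBBP4 regions to RBBP7 and HDAC2 lay 12556 and 75760 bp away.

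**Figure D3:**
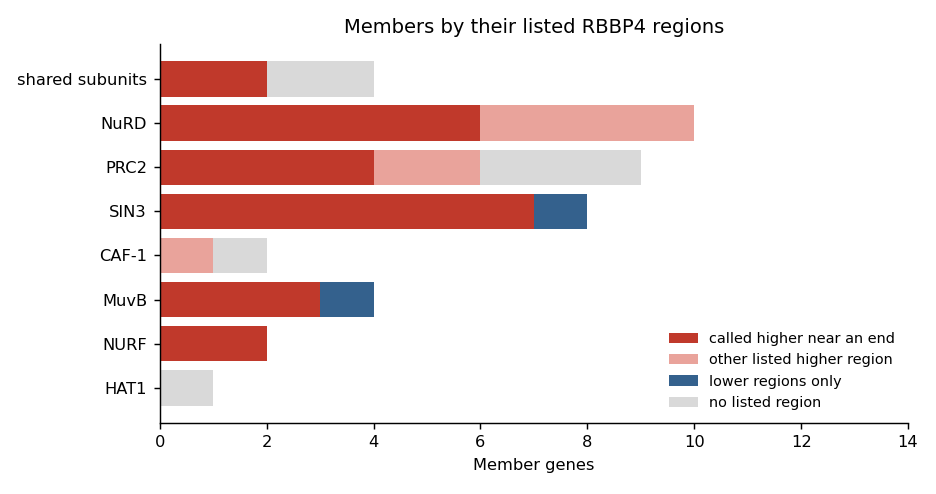
Number of member genes (horizontal axis) in each complex by their listed RBBP4 regions: a called higher region near an end, another listed higher region, lower regions only, or no listed region. Of the SIN3 genes 7 of 8 and of the NuRD genes 6 of 10 are in the first class, and the 7 genes with no listed region are spread over the shared subunits, PRC2, CAF-1 and HAT1.

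NuRD genes all had a listed higher region, and 6 of 10 had a called one near an end. The largest RPKM after knockdown was at GATAD2B, which encodes a p66 scaffold subunit. Its region (chr1:153923173-153923474), 201 bp upstream, had 26 reads (71.3 RPKM) against 4 (15.9 RPKM), 4.48-fold higher (1.56 to 17.7). CHD3, a remodelling ATPase, had 35 reads (56.8 RPKM) against 3 (7.06 RPKM) at chr17:7887222-7887731, 8.05-fold higher (2.54 to 40.9). That region lay inside the gene, 1058 bp before an inner start. CHD4, the main ATPase of the complex, had 2 called regions upstream of its start, with 28 reads against 4 (4.83-fold, 1.69 to 18.9) and 20 against 3 (4.60-fold, 1.36 to 24.2). The remaining region, in the neighbouring gene NOP2, had 25 reads against 11 and was not called.

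The metastasis-associated subunits, which bind the deacetylases, did not share a pattern. MTA1 had the deepest NuRD region, with 71 reads (41.6 RPKM) against 16 (13.6 RPKM), 3.06-fold higher (1.76 to 5.64). It lay 2418 bp beyond the 3′ end, in CRIP2, and so not at the MTA1 promoter. MTA2 had 4 higher regions, of which 1 lay in TUT1 beyond the 3′ end (27 against 5), 1 in EML3 at 108 bp upstream of the start (15 against 2) and 2 in the gene (15 against 3, and 11 against 2, not called). The 15 against 3 reads had 0.0492 as adjusted p-value in the authors' deposited table and a fold of 3.45 whose interval (0.976 to 18.6) includes 1. MTA3 had 2 lower regions (2 reads against 12, and 1 against 8) and 1 higher (10 against 2), all inside the gene and none called.

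MBD2, MBD3 and the remaining NuRD genes were thinly covered. MBD3 had 13 reads (37.2 RPKM) against 0 inside the gene, 305 bp after the start. With 3 reads as the limit for a count of 0, that is at least 2.99-fold higher (lower exact limit 2.10). MBD2 had 10 reads against 2 over its start and 2 against 10 inside the gene, neither called. GATAD2A, the paralogue of GATAD2B, had 1 called region in each direction, both inside the gene: 2 reads (4.08 RPKM) against 13 (38.4 RPKM), 9.42-fold lower (2.13 to 86.0), and 15 against 3. CHD5, a neuronal CHD ATPase, had 11 reads against 2 at 242 bp from one end, not called.

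In PRC2 a called higher region near an end was found at 4 of 9 genes, the catalytic EZH2, the core subunit EED and the accessory subunits JARID2 and MTF2. EZH2 had 31 reads (45.3 RPKM) against 3 (6.35 RPKM) at chr7:148884398-148884964, 107 bp upstream, 7.13-fold higher (2.22 to 36.4). EED, which binds trimethylated lysine 27, had 17 reads (25.7 RPKM) against 2 (4.38 RPKM) 185 bp into the gene, 5.86-fold higher (1.39 to 52.3). MTF2, a Polycomb-like DNA-binding subunit, had 30 reads (39.3 RPKM) against 7 (13.3 RPKM) over its start, 2.96-fold higher (1.27 to 7.97). Inside MTF2 a second called region was lower, with 1 read (2.16 RPKM) against 12 (37.6 RPKM), 17.4-fold (2.57 to 744).

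The rest of PRC2 had no called region. EZH1, the other catalytic paralogue, had 27 reads against 10 over its start (1.86-fold, 0.874 to 4.31) and 1 against 8 inside the gene. SUZ12, the core scaffold, had 10 reads against 2 at 100 bp after its start (3.45-fold, 0.735 to 32.4). Both intervals at these starts include 1 when reads are scaled to library totals. AEBP2, PHF1 and PHF19, accessory subunits, had no listed RBBP4 region, and the nearest lay 53707, 154601 and 12220 bp away.

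JARID2, which helps PRC2 bind nucleosomes and DNA, held 11 of the 68 RBBP4 regions, the most of any member. Its span is long, and 9 of the 11 were higher and 2 lower. The region over the outermost start (chr6:15245535-15246088), whose promoter is printed above, had 26 reads (38.9 RPKM) against 1 (2.17 RPKM), 17.9-fold higher (2.95 to 735). The deepest one (chr6:15260394-15261311), 14325 bp into the gene, had 92 reads (83.0 RPKM) against 11 (14.4 RPKM), 5.77-fold higher (3.08 to 12.0). Far into the gene, at chr6:15462342-15463114, there were 63 reads (67.5 RPKM) against 13 (20.2 RPKM), 3.34-fold higher (1.82 to 6.62). JARID2 thus had called higher regions at its start and well inside its span.

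Directions also met within JARID2. At chr6:15393470-15393765 there were 0 reads against 11 (44.6 RPKM), at least 5.32-fold lower (lower exact limit 3.64). A called higher region with 28 reads (44.8 RPKM) against 5 (11.6 RPKM) began at 15400039, a few kilobases further on. The region over an inner start did not resolve into whole reads and had 34.5 RPKM against 11.4 RPKM, called higher. The other 5 were 28 reads against 7 (called higher), 19 against 6, 27 against 11, 17 against 6 and 3 against 14, the last lower, with none of the final 4 called.

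**Figure D4:**
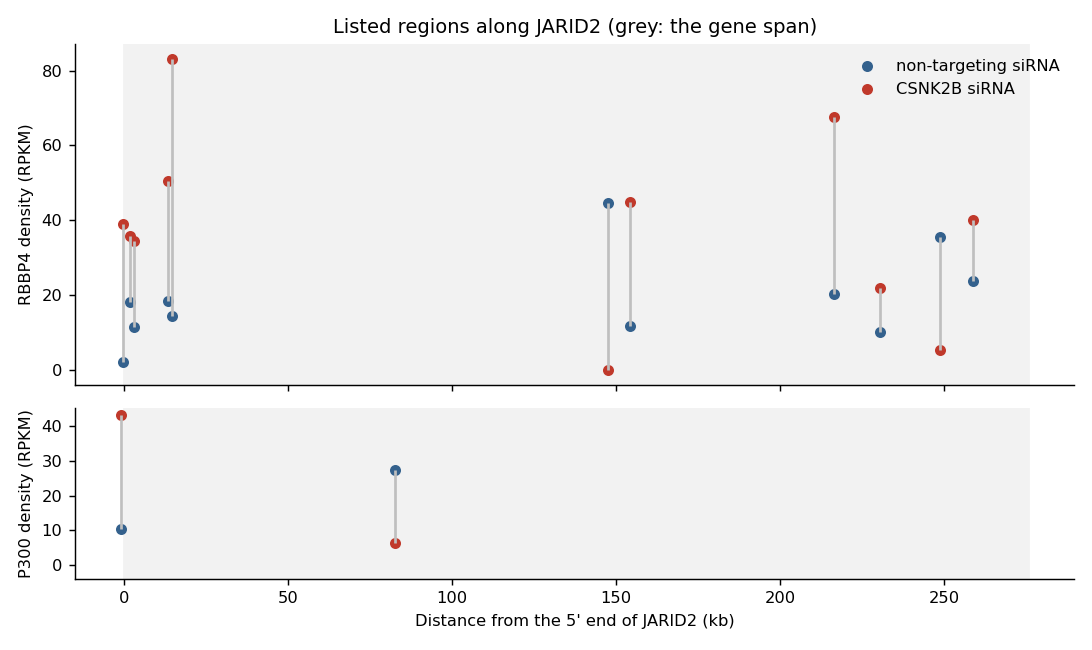
RBBP4 (top) and P300 (bottom) read density in RPKM of each listed region along JARID2 by distance from the 5′ end of the gene in kb, control in blue and CSNK2B siRNA in red, 1 library each, with the gene span in grey. The RBBP4 region near 0 kb has 38.9 against 2.17 RPKM and the P300 region just upstream 43.2 against 10.4 RPKM, and 2 RBBP4 regions and 1 P300 region inside the gene are lower.

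SIN3 genes had a called higher region near an end in 7 of 8 cases, the exception being SAP130. SIN3A, the scaffold, had 6 regions, with 2 called higher ones just inside its start (12 reads against 1, 8.28-fold, 1.23 to 354, and 16 against 3, 3.68-fold, 1.05 to 19.7). Another called one, with 30 reads (38.7 RPKM) against 4 (7.48 RPKM), lay 634 bp beyond the 3′ end in MAN2C1 (5.17-fold, 1.82 to 20.2). Another called region was lower, with 2 reads (4.88 RPKM) against 14 (49.6 RPKM) inside the gene, 10.1-fold (2.33 to 92.0), and 13 against 3 and 11 against 2 were not called. SIN3B, the paralogous scaffold, had 15 reads (41.3 RPKM) against 2 (7.98 RPKM) 29 bp upstream, 5.17-fold higher (1.20 to 46.6).

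Among the SIN3-associated proteins SAP30, which bridges SIN3 to its deacetylases, was the deepest. It had 40 reads (34.3 RPKM) against 7 (8.70 RPKM) at 427 bp upstream (chr4:173369562-173370527), 3.94-fold higher (1.75 to 10.4), and 15 against 3 over its start. The interval of the latter (0.976 to 18.6) includes 1. SUDS3, which dimerises within the complex, had 16 reads (25.9 RPKM) against 0 at 856 bp after its start, at least 3.68-fold higher (lower exact limit 2.66). SAP18 had 18 reads (37.1 RPKM) against 4 (11.9 RPKM) at 205 bp from one end, 3.10-fold higher (1.02 to 12.6). SAP130 stood apart, with 1 region that was called lower, 1 read (2.30 RPKM) against 11 (36.7 RPKM) inside the gene, 15.9-fold (2.32 to 686).

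ING1 and ING2 read trimethylated lysine 4 of histone H3 for the complex, and both were higher. ING2 had 15 reads (23.8 RPKM) against 1 (2.30 RPKM) over an inner start, 10.3-fold (1.59 to 436), and 19 (27.0 RPKM) against 3 (6.19 RPKM) at 63 bp upstream of its outer start, 4.37-fold (1.29 to 23.1). ING1 had 11 reads (32.8 RPKM) against 1 (4.32 RPKM), 7.59-fold (1.10 to 327), in a region that also overlaps CARS2.

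CAF-1 and HAT1, which handle newly made histones, had no called region. CHAF1A, the large CAF-1 subunit, had 18 reads (27.7 RPKM) against 6 (13.4 RPKM) at 1445 bp upstream, 2.07-fold (0.787 to 6.37), nearer to an end of SH3GL1, and 1 against 8 inside the gene. CHAF1B and HAT1 were in neither table, and the nearest listed RBBP4 regions lay 65250 and 112712 bp away.

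MuvB genes split, with a called higher region near an end at LIN9, LIN37 and LIN54 and only lower regions at LIN52. LIN54, the DNA-binding subunit, had 18 reads (27.0 RPKM) against 1 (2.17 RPKM) over its start, 12.4-fold higher (1.96 to 517), and 1 against 10 some 2228 bp after an inner start, not called. LIN9, a scaffold of the complex, had 26 reads (54.0 RPKM) against 6 (18.1 RPKM) over an inner start, 2.99-fold higher (1.20 to 8.88). LIN37, needed for repression by DREAM, had 20 reads (50.02 RPKM) against 4 (14.5 RPKM), 3.45-fold higher (1.16 to 13.9), in U2AF1L4. The 3 regions in LIN52, the subunit that links MuvB to its pocket protein, had 2 reads against 11 (7.97-fold lower, 1.74 to 74.03), 4 against 14 (5.07-fold, 1.59 to 21.2) and 7 against 19 (3.94-fold, 1.58 to 11.1). All 3 intervals at LIN52 exclude 1, but none was called.

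Both NURF genes had a called higher region near an end. BPTF, the subunit that binds methylated histone H3, had 32 reads (50.9 RPKM) against 5 (11.5 RPKM) inside the gene (4.41-fold, 1.71 to 14.5). At one end of BPTF there were 11 reads (32.8 RPKM) against 1 (4.32 RPKM), 7.59-fold (1.10 to 327), and 810 bp from it 14 against 3, not called. SMARCA1, its ISWI ATPase, had 17 reads (41.3 RPKM) against 3 (10.6 RPKM) 837 bp after its start, 3.91-fold higher (1.13 to 20.8).

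Lower RBBP4 regions were a minority of those at members. Of the members, 5 (12.5%) had a called lower region, GATAD2A, JARID2, MTF2, SIN3A and SAP130, and 5.60% of all protein-coding genes had one. Listed lower regions of any kind were present at 11 members (27.5%), and at 14.8% of all genes. These shares per gene carry the difference in span, a median of 49690 bp for members against 24130 bp. Per region, those at least 2-fold lower made up 22.1% at members and 31.2% of all listed regions. All 15 were at least 2-fold lower, had 0 to 7 reads after knockdown and 8 to 19 in the control, and lay inside the member's span. Of the 11 genes, 9 also carried a higher region, and SAP130 and LIN52 carried lower ones alone. With a minimum of 20 reads over both libraries 0 of the 5 called lower regions is left, so each rests on few reads.

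P300 was listed at fewer of these genes. Of the 40 members 12 (30%) had a P300 region, against 23.6% of all genes, 6 (15%) had one higher by 2-fold or more, against 11.5%, and 8 (20%) one lower by 2-fold or more, against 17.5%. In the authors' deposited table no member's P300 region reached an adjusted p under 0.05, the lowest value for any P300 region being 0.260. Of the 15 regions 6 exceeded the control by 2-fold or more and 9 lay that far below it, as did 34.7% and 64.3% of all listed P300 regions. The median log2 ratio of the 15 was -1.87, against -1.70 for all.

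P300 regions lay mostly far from gene ends, with a higher one near an end at 1 member (2.5%, against 2.39% of all genes) and a lower one at 1 member (LIN54, against 3.73%). The higher one was at JARID2 (chr6:15244857-15245296), with 18 reads (43.2 RPKM) against 5 (10.4 RPKM), 4.16-fold (1.49 to 14.3). It lay 773 bp upstream of the start and 239 bp from the RBBP4 region over that start, which was higher too. The second P300 region of JARID2, inside the gene, had 2 reads against 10. EZH2 likewise had 1 P300 region in each direction, with 13 reads (47.2 RPKM) against 3 (9.43 RPKM) and 3 (9.38 RPKM) against 13 (35.2 RPKM), both over 20 kb inside the gene.

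Higher P300 regions inside the gene were listed at 4 further members. GATAD2B and BPTF each had 14 reads against 3 (5.39-fold, 1.50 to 29.2), and AEBP2 had 11 (50.1 RPKM) against 2 (7.89 RPKM), 6.35-fold (1.39 to 59.0). SAP130 had 9 reads (53.1 RPKM) against 0, at least 3.46-fold higher (lower exact limit 2.28). Both tables listed SAP130, with the P300 region higher and the RBBP4 region, 22621 bp from it, lower.

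Lower P300 regions without a higher one were listed at 6 members. MTA3 and SMARCA1 had 2 reads against 11 (4.76-fold lower, 1.04 to 44.2), MBD2 1 against 8 (6.93-fold, 0.929 to 307) and SUDS3 1 against 9 (7.79-fold, 1.08 to 342). LIN52 had 1 against 8 and 2 against 9, and LIN54 had 0 against 7, at least 2.02-fold lower (lower exact limit 1.25). In LIN52 both antibodies were lower, and the nearest P300 and RBBP4 regions lay 593 bp apart. SUDS3 had the opposite, a lower P300 region 3570 bp from its higher RBBP4 region. In all, 11 members were in both tables and 6 in neither (RBBP7, HDAC2, PHF1, PHF19, CHAF1B and HAT1). Antibody and labelled batch coincide, so a difference between the tables cannot be told apart from one between batches.

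Genes of known partners of these complexes were counted in the same way. Of 37 partner genes, all matched in RefSeq, 18 (48.6%) had a called higher RBBP4 region near an end, against 29.7% of all genes, and 3 (8.11%) a called lower one (ARID4A, ARID4B and RBL1), against 5.60%. The count of called higher regions near an end was 7 of 11 SIN3 partners, 3 of 4 NuRD partners, 2 of 9 MuvB partners, 2 of 4 histone supply partners, 1 of 4 NURF partners, 1 of 3 PRC2 partners, and both RB1 and EP300. The groups are small, and a difference between complexes was not tested. For P300, 3 partners (8.11%) had a region higher by 2-fold or more, against 11.5% of all genes, and 7 (18.9%) one lower by as much, against 17.5%.

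**Figure D5:**
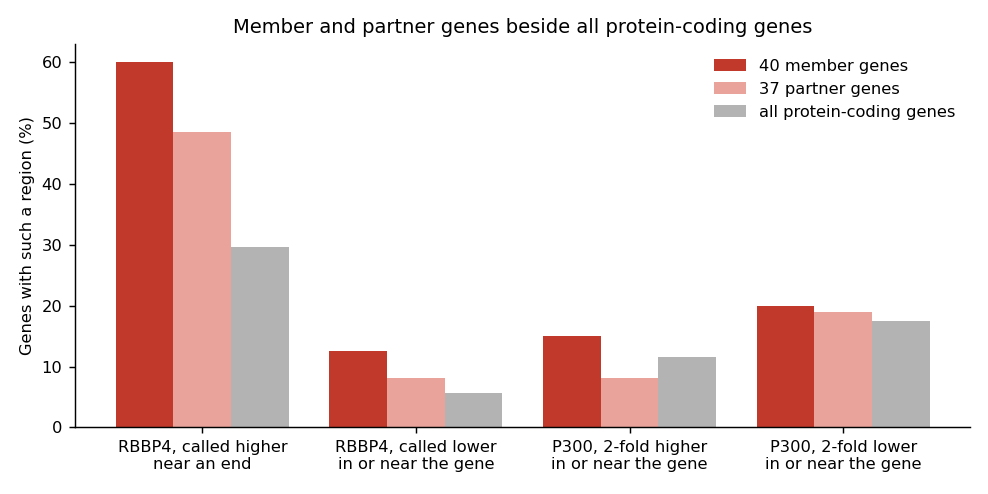
Share of genes (%, from 0) with each kind of listed region among the 40 member genes, the 37 partner genes and all 20033 protein-coding genes. For a called higher RBBP4 region near an end the shares are 60%, 48.6% and 29.7%, and for a P300 region at least 2-fold lower they are 20%, 18.9% and 17.5%.

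The partners named are the 2 per complex with the most reads in a single region, or the only one with a region. PHF12 and ARID4B, which join SIN3 complexes, had 60 reads against 5 (8.28-fold, 3.36 to 26.4) and 57 against 6 (6.55-fold, 2.83 to 18.6) over their starts. KDM1A, the demethylase that works with NuRD, had 32 against 4 (5.52-fold, 1.96 to 21.5), and ZMYND8 24 against 4 (4.14-fold, 1.42 to 16.4). PCNA, the replication clamp that recruits CAF-1, had 43 against 5 (5.93-fold, 2.35 to 19.2), and the histone chaperone NASP 15 against 2 (5.17-fold, 1.20 to 46.6). All of these were called higher.

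Among MuvB and NURF partners, called regions lay both at and away from gene ends. TFDP1, the E2F dimerisation partner, had 62 reads against 25 within its span (1.71-fold, 1.06 to 2.84), and FOXM1, a mitotic transcription factor that joins MuvB, had 34 against 8 at an end (2.93-fold, 1.33 to 7.33). CECR2, a bromodomain partner of ISWI ATPases, had 45 against 3 inside the gene (10.3-fold, 3.32 to 52.05), and BACC1 14 against 1 over its start (9.66-fold, 1.47 to 408). LCOR, a PRC2 partner, had a region over its start that gave no whole reads and was 7.24-fold higher by RPKM. EP300, which encodes P300, had 30 against 6 (3.45-fold, 1.41 to 10.1), and RB1, the retinoblastoma gene, 18 against 2 (6.21-fold, 1.49 to 55.2). Lower RBBP4 regions that were not called lay inside RB1 (2 against 12, 1 against 9 and 3 against 12) and PHF12 (4 against 16). RB1 also had a lower P300 region, with 2 reads against 13. The called lower regions were 2 reads against 15 in ARID4A, 4 against 18 in ARID4B and 0 against 10 in RBL1, at least 4.83-fold lower, all inside the gene.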

How the data were processed

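The deposited tables hold 1 row per region with RPKM values for 1 immunoprecipitated library per siRNA and antibody (4 of 8 libraries; inputs not used). Per the file headers, the authors give RPKM, a log2 fold change, a log2 CPM, a p-value and an adjusted p-value, and only regions with a p-value below 0.05 are listed. The submitters' processing notes name ChIPseeker 1.28.3, DiffBind 3.4.11, MACS2 2.2.7.1, Bowtie2 2.4.5, Trim Galore 0.6.7 and GRCh38, without roles, and the library total behind RPKM is not given in the sources used here. RPKM times width was a whole multiple of 1 step for 98.3% (RBBP4) and 99.4% (P300) of regions, within 0.01 of a read, which gave reads and library totals. The authors' log2 fold changes sat 0.56 above (RBBP4) and 0.42 below (-0.42, P300) those of RPKM. Whether an interval given here includes 1 can therefore depend on the scaling. Peaks carry the name of 1 arm, and that arm had more signal in 35151 of 35154 RBBP4 and all 20496 P300 regions, so counts of directions follow the peak calls.

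Folds are reads scaled to those totals, with Clopper-Pearson intervals (SciPy 1.17.1), and log2 ratios used RPKM + 1. Reads without molecular identifiers are not independent molecules. A 0 was set to 3 reads for a bound. With 1 library per siRNA no test of the conditions was possible, and p-values are the authors'. Gene spans came from RefSeq GRCh38.p14, and starts from its promoter table (37 of 40 members, without BPTF, SAP18 and CHD5) and the 5′ limit of the span. Exons were not used. The code was checked on simulated data.

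Members, partner genes (NuRD, PRC2, SIN3, histone supply, MuvB, NURF and other RBBP4 partners) and marker genes were chosen with earlier results of these data known. Values were given for members with a called higher region near an end, with a lower region or both directions, or with a P300 region, and for up to 2 partners per complex with the most reads. Promoters were printed for the 6 members with the most reads in a called region over the promoter window. Other gene symbols were named as neighbours. BAP18 was matched through its RefSeq symbol BACC1.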

Additional observations from a re-analysis of the deposited data

How the results depend on the processing

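Of the alternatives, 51 gave values close to those reported and 7 moved them. A count was termed close even where 24 members became 16. A reversed direction could be seen only for the median log2 ratios, and none of them changed sign. With the limit on the adjusted p of the authors' deposited table set to 0.01, 15 members rather than 24 had a called higher RBBP4 region near an end (37.5%, against 19.6% of all genes), and 0 rather than 5 had a called lower one. Requiring 20 reads left 0 members with a called lower region, 24 regions at least 2-fold higher rather than 48, and 1 at least 2-fold lower rather than 15; 16 members (40%, against 22.8%) kept a called higher region near an end. At 4-fold, 21 regions were higher. On the authors' scaling the RBBP4 median log2 ratio of member regions was 2.32 rather than 1.69, while that of all listed regions moved from 1.49 to 2.11, and no member region changed sign. The cause of these moves was not tested beyond fewer regions passing the stricter limits. No paired analysis was possible because each group has 1 library, and for the same reason no library could be left out.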

Other observations

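Outside the 3000 bp flanks, the nearest listed RBBP4 region was higher for all 7 members that had no region of their own. Of all 35154 listed regions 24180 were higher as well. The regions nearest to RBBP7 (10 reads against 2) and AEBP2 (22 against 7) were not called. The region 12220 bp from PHF19 had 25 knockdown and 2 control reads, the one 75760 bp from HDAC2 had 18 and 1, and the one 65250 bp from CHAF1B had 18 and 0. The region 5294 bp from CHD4 had 84 reads against 6, more than any region counted for that gene, and the one 35605 bp from SAP30 had 86 against 9. Nothing in these files ties such a region to the member.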
